A study of Mus musculus with 6 samples.

Results

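A set of 10 genes of zinc handling was followed across mouse embryonic fibroblasts, fibroblasts treated to become Sertoli-like, and Sertoli cells. They are the zinc transporter genes Slc30a1, Slc30a2, Slc30a4, Slc30a5 and Slc30a10, the metal importer genes Slc39a8 and Slc39a14, and the metallothionein genes Mt1, Mt2 and Mt3. They were taken by symbol and Entrez identifier, 10 of 20007 gene identifiers in the files, and all 10 were found. They had been picked with their levels in these 3 groups already known, so their values and fold changes are given as a description and no test is attached to them. They are a part of their families, with 5 of 10 Slc30, 2 of 14 Slc39 and 3 of 4 metallothionein genes.

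The RNA came from 6 libraries of KM mice, 2 in each group, sequenced on a BGISEQ-500 instrument. MEFs were fibroblasts from embryos labelled 13.5 days post coitum, with an earlier day also named in the protocol for growing them. CiSCs were passaged MEFs seeded in plates and then given small-molecule compounds whose names the labels leave out, and no group of passaged MEFs without compounds was among the samples, so passaging and compounds cannot be told apart. MSCs were cells labelled Sertoli cells, obtained from testes at postnatal day 60 and grown in dishes, and they differ from the other groups in age and tissue as well as in cell type. Whether a pair came from separate animals or cultures is not in the labels, so p-values measure only the spread between these libraries, which may be technical.

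Zinc is held at a very low free level in the cytosol. SLC30 proteins (ZnT) move zinc out of the cytosol, across the plasma membrane or into vesicles and the secretory pathway. SLC39 proteins (ZIP) move zinc, and in some cases manganese, iron or cadmium, into it. Metallothioneins are small cysteine-rich proteins that bind zinc, copper and cadmium. The transcription factor MTF1 senses zinc and activates Mt1, Mt2 and Slc30a1 through short promoter motifs called metal response elements. Spermatogenesis needs zinc, and the testis is a known target of cadmium.

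The groups could be checked by their markers. Summed over 10 Sertoli cell markers, levels ranged from 93.6 to 104 CPM (reads scaled to the size of each library, with TMM factors) in MEFs, 4120 to 4849 CPM in CiSCs and 6021 to 8907 CPM in MSCs, with Fshr at 0 reads in MEFs and CiSCs and 4 reads in each MSC library. Clu alone gave 4734 and 4020 CPM of the CiSC sums, and without it the other 9 markers summed to 87.9 and 97.8 CPM (MEFs), 115 and 99.6 CPM (CiSCs), and 1169 and 1377 CPM (MSCs). Of 9 Sertoli markers tested, 3 (Clu, Wt1 and Cldn11) were higher in CiSCs than in MEFs and 8 were lower in CiSCs than in MSCs. Over 12 leukocyte markers the sums were 12440 and 20187 CPM (MEFs), 35.7 and 52.5 CPM (CiSCs), and 1481 and 1406 CPM (MSCs), and all 12 were above 0 in every library. Lyz2 alone gave 7161 and 12498 CPM of the MEF sums. Between the MEF libraries, 9 of the 12 were higher in the second, and Ptprc, Adgre1 and Mrc1 were higher in the first. Over 7 Leydig cell markers the sum was 2.39 to 3.72 CPM in MEFs and CiSCs but 1360 and 1393 CPM in MSCs, where Cyp11a1, Star, Hsd3b1 and Insl3 made up nearly all of it. Hsd17b3 had 0 reads in the MSC libraries, Cyp17a1 had 0 and 1, and Lhcgr had 1 and 2. Endothelial markers (5 genes) summed to 89.3 and 92.7 CPM in MSCs and 9.36 to 13.1 CPM elsewhere. All 8 fibroblast markers were present in every library. They summed to 18734 and 19906 CPM (MEFs), 26663 and 27035 CPM (CiSCs), and 38162 and 40967 CPM (MSCs). The collagen genes Col1a1, Col1a2 and Col3a1 made up most of the MSC sums, with means of 13938, 10290 and 14224 CPM. Thy1 and Lum went the other way, from 777 and 34.2 CPM in MEFs to 4.22 and 4.91 CPM in MSCs. Of the 8, 3 were higher and 2 lower in MSCs than in MEFs (22.5% and 20% of all tested genes). Replicates differed by over 2-fold in 1416 genes between the MEF libraries, in 477 between the CiSC libraries and in 415 between the MSC libraries. In bulk RNA, fewer cells of a type and less RNA per cell cannot be told apart.

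Mt1, Mt2 and Mt3 lie side by side on chromosome 8 in the order Mt4, Mt3, Mt2, Mt1, with no other protein-coding gene between them (RefSeq, GRCm38). The 250 bases before their RefSeq starts are shown because these neighbours had unlike levels in MEFs and CiSCs. Capitals mark the core of the metal response element, searched on both strands as TGCACNC and TGCGCNC, where N is any base. All 3 windows are on the plus strand of GRCm38.p6, at chr8:94178839-94179088 for Mt1, chr8:94172368-94172617 for Mt2 and chr8:94152357-94152606 for Mt3.
Mt1: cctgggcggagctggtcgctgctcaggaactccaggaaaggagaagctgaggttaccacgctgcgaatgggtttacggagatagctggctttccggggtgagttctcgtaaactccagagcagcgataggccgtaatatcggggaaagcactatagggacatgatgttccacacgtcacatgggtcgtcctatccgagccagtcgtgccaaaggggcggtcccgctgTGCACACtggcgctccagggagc
Mt2: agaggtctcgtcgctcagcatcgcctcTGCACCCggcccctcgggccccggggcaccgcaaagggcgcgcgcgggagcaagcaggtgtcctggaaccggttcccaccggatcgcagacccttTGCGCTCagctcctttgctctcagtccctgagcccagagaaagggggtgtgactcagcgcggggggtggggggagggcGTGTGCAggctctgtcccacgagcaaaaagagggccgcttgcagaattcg
Mt3: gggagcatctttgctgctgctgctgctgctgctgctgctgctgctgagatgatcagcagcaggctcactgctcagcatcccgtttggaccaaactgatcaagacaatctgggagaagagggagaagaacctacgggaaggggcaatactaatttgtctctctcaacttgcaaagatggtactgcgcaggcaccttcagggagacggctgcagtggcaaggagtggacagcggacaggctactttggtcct
The Mt1 window held 1 match, the Mt2 window 3 matches and the Mt3 window 0. Over all 32851 RefSeq promoter windows of this length, 21.4% held at least 1 match and 1.26% at least 3. These windows end just before the start given in the RefSeq table. GENCODE M21 also places Mt1 transcripts at 122 and 152 bases after it and an Mt3 transcript at 139 bases after it. For Mt2, GENCODE places no protein-coding transcript at the RefSeq start, only at 46 and 242 bases after it. Motifs close to those later starts fall outside the windows. A match is a string of letters, not a shown binding site.

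Windows were found for 9 of the 10 genes. Matches numbered 1 in Slc30a1, 2 each in Slc30a2 and Slc30a4, 1 in Slc30a5, 3 in Slc30a10, of which 2 overlap on opposite strands, and 0 and 1 at the pair of Slc39a8 starts. Slc30a10, with 3 matches, was almost unread. GENCODE M21 also starts some Slc30a2 transcripts ahead of its whole window, so the window does not precede those starts. Motifs near other annotated starts, earlier or later, are not counted here. A link between the number of matches and the level was not tested.

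**Figure D1:**
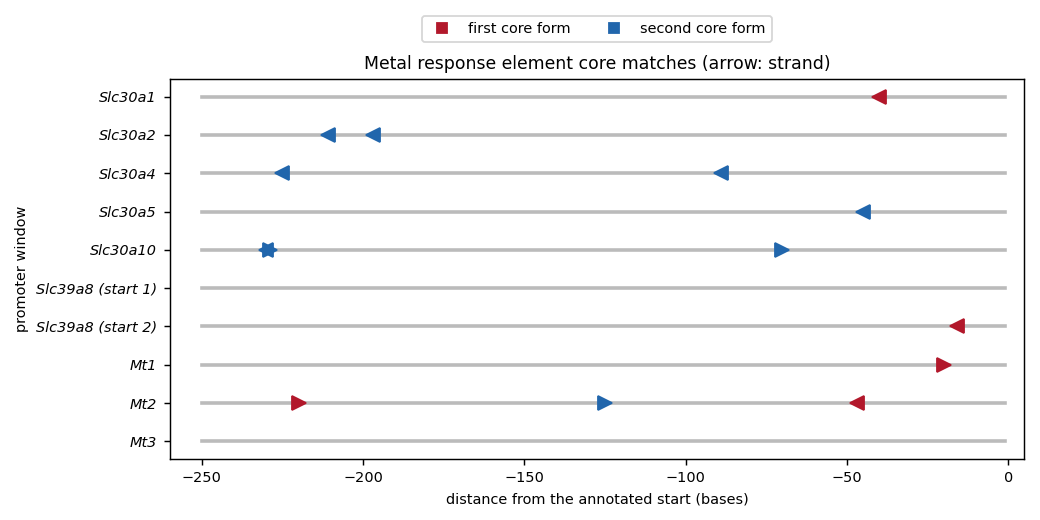
Position of each metal response element core match (arrowheads, pointing right for the gene's strand and left for the opposite one) in the 250 bases before each annotated start, in bases from that start. The first form is TGCACNC and the second TGCGCNC. The Mt2 window holds 3 matches, the Mt1 window 1 and the Mt3 window 0.

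Mt1 and Mt2, the ubiquitous metal-inducible metallothioneins, were far more abundant in MSCs than in the other groups and least abundant in CiSCs. Mt1 (Entrez Gene 17748) stood at 54.0 and 104 CPM in the MEF libraries, 46.7 and 32.5 CPM in the CiSC libraries, and 438 and 471 CPM in the MSC libraries. No library of one group reached into another, although the lower MEF library lay close to the higher CiSC library. The group means were 79.0 ± 35.3, 39.6 ± 10.1 and 455 ± 23.3 CPM (SD, n = 2 each). The fitted level in MSCs was 5.76 times higher than in MEFs (log2 fold change 2.53 ± 0.34, SE) and 11.5 times higher than in CiSCs.

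Mt2 (Entrez Gene 17750) followed the same order with a wider range. The MEF libraries gave 21.5 and 43.7 CPM, the CiSC libraries 16.3 and 10.4 CPM, and the MSC libraries 345 and 325 CPM. The MSC libraries were well above all others and the CiSC libraries were the lowest, again close to the lower MEF library. Mt2 was 10.3 times higher in MSCs than in MEFs (log2 fold change 3.36 ± 0.38, SE) and 25.1 times higher than in CiSCs (means 335 ± 14.4 against 13.3 ± 4.16 CPM, SD, n = 2 each).

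Between CiSCs and MEFs the difference was smaller and leaned on single MEF libraries. The log2 fold change was -0.997 ± 0.325 for Mt1 and -1.29 ± 0.36 for Mt2 (SE). The second MEF library held 1.93 times as much Mt1 and 2.03 times as much Mt2 as the first. Without it the values shrank to -0.45 for Mt1 and -0.70 for Mt2, and without the first MEF library they were -1.42 and -1.74. The second MEF library also held more of 9 leukocyte markers and less of the other 3, and their part in the metallothionein levels was not tested. Without the second MEF library, the log2 fold change of Mt2 in MSCs against MEFs rose to 3.95.

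The balance of both genes also differed. Mt1 had 2.51 and 2.38 counts for each Mt2 count in the MEF libraries and 2.87 and 3.13 in the CiSC libraries, but 1.27 and 1.45 in the MSC libraries. The ratio was thus lowest in both MSC libraries, with no overlap. Metallothionein counts were 0.0725% and 0.0738% of all counts in the MSC libraries, against 0.00466% to 0.0147% in the other 4. The family shares sequence, and how reads matching several genes were assigned is not given in the sources used here, so the split between Mt1 and Mt2 carries that uncertainty.

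Mt3, the metallothionein best known from brain, was detected only in MSC libraries. It had 71 and 86 reads there, or 3.77 and 4.67 CPM, and 0 reads in all 4 MEF and CiSC libraries. Where a group has 0 reads, up to 3 reads in the pair remain possible, or 0.0769 CPM in MEFs and 0.0709 CPM in CiSCs, so the MSC level was at least 54.9-fold higher than in MEFs and at least 59.6-fold higher than in CiSCs. These bounds cover counting error only. The neighbouring Mt4 had 0 reads in 5 libraries and 1 read in the second CiSC library.

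**Figure D2:**
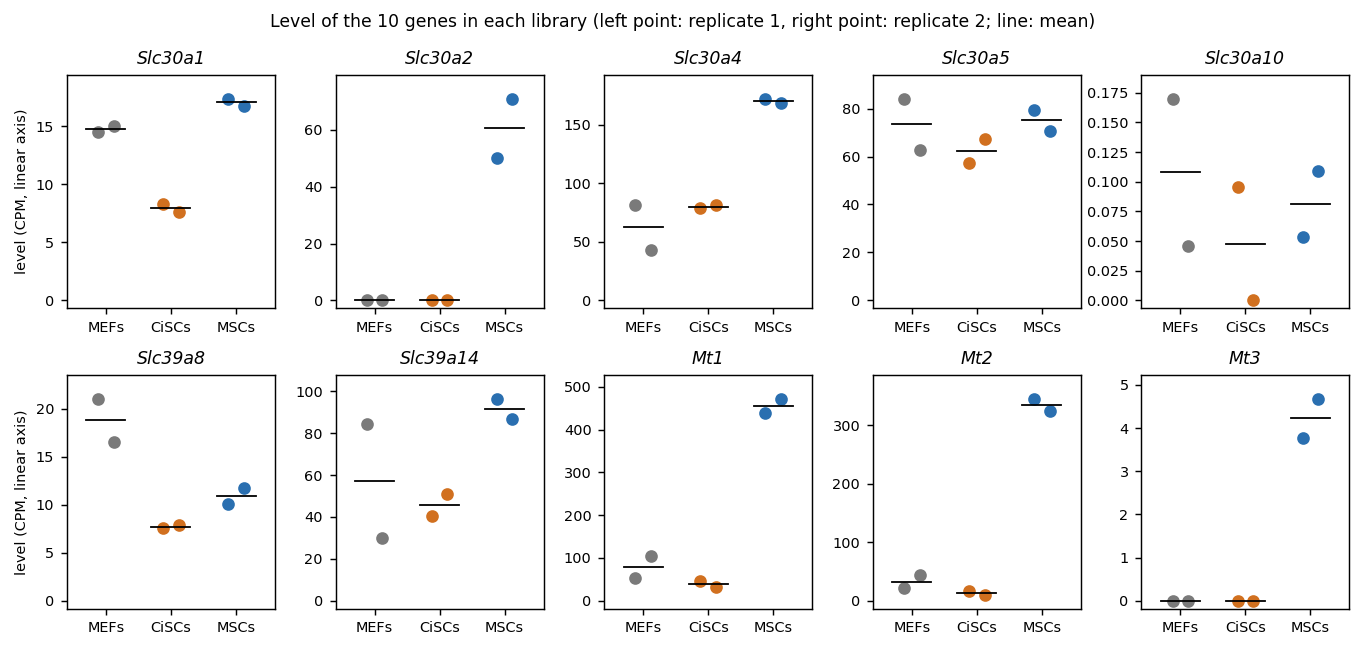
Level of each of the 10 genes in CPM (vertical axis, linear and starting at 0, with its own scale per gene) in the 6 libraries, with points for replicates 1 and 2 and a line at the group mean. Mt1, Mt2, Mt3, Slc30a2 and Slc30a4 were highest in both MSC libraries by a wide margin, Slc30a1 and Slc39a8 were lowest in CiSCs, and Slc30a5 overlapped between MEFs and the other groups.

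Among the SLC30 genes, Slc30a2, which loads zinc into vesicles and into milk in the mammary gland, showed the widest range. It had 942 and 1305 reads in the MSC libraries, or 50.1 and 70.9 CPM, and 0 reads in every MEF and CiSC library. The MSC level was therefore at least 787-fold higher than in MEFs and at least 854-fold higher than in CiSCs, taking 3 reads over the group as the floor. Like Mt3, it had enough counts for the fit only through the MSC libraries. The summed Leydig, endothelial, Sertoli, fibroblast and germ cell markers were each highest in those same libraries, though not every marker of these lists was. The part of each cell type in the Slc30a2 and Mt3 reads was not tested.

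Slc30a4, another vesicle loader, whose loss in the lethal milk mouse leaves milk short of zinc, was highest in MSCs as well. The MEF libraries gave 81.7 and 43.4 CPM, the CiSC libraries 78.6 and 81.5 CPM, and the MSC libraries 172 and 168 CPM. Both CiSC values lay within the MEF range, close to its upper end. The MSC level was 2.72 times that in MEFs (log2 fold change 1.45 ± 0.28) and 2.13 times that in CiSCs. The sign of the small difference between CiSCs and MEFs (0.36 ± 0.28, log2) turned on the MEF library used, at 0.86 without the first and -0.03 without the second.

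Slc30a1, the zinc exporter of the plasma membrane and an MTF1 target like Mt1 and Mt2, had a different profile. The MEF libraries gave 14.5 and 15.02 CPM, the CiSC libraries 8.30 and 7.65 CPM, and the MSC libraries 17.4 and 16.7 CPM. Replicates agreed within 1.09-fold in each group, and CiSCs were below both other groups without overlap. The level in CiSCs was 1.85 times lower than in MEFs (log2 fold change -0.89 ± 0.15) and 2.14 times lower than in MSCs. MSCs exceeded MEFs by only 1.15 times (log2 fold change 0.21 ± 0.15), a far smaller step than that of Mt1 or Mt2.

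Slc30a5, which supplies zinc to enzymes of the early secretory pathway together with Slc30a6, was the most even of the expressed members. The MEF libraries gave 84.1 and 62.7 CPM, the CiSC libraries 57.1 and 67.5 CPM, and the MSC libraries 79.5 and 70.7 CPM. MEFs overlapped with both other groups, and the fitted differences from MEFs were -0.24 ± 0.18 for CiSCs and 0.03 ± 0.18 for MSCs (log2, SE). Slc30a10, a manganese exporter of the same family, had 4.24 estimated reads over both MEF libraries, 2 over the CiSC libraries and 3 over the MSC libraries. It did not reach the count needed for the fit, and no difference between groups was detectable at this depth.

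The importer genes Slc39a8 and Slc39a14, which carry zinc, manganese and iron, went separate ways. Slc39a8, also a route for cadmium entry in the mouse testis, was highest in MEFs, at 21.0 and 16.5 CPM. It stood at 7.61 and 7.83 CPM in CiSCs and at 10.1 and 11.7 CPM in MSCs. The 3 groups did not overlap. Against MEFs, the level was 2.43 times lower in CiSCs (log2 fold change -1.28 ± 0.19) and 1.72 times lower in MSCs (-0.78 ± 0.19). Leukocyte markers fell in the same comparisons, 12 of 12 in CiSCs (median log2 fold change -8.65) and 12 of 12 in MSCs (median -3.21), and their part in the Slc39a8 difference was not tested. Between the MEF libraries Slc39a8 was higher in the first, as were 3 of the leukocyte markers (Ptprc, Adgre1 and Mrc1), while the other 9 were higher in the second.

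Slc39a14 was highest in MSCs, at 96.4 and 86.9 CPM, with 40.5 and 51.1 CPM in CiSCs. The MEF libraries, at 84.3 and 30.2 CPM, differed by 2.80-fold and enclosed both CiSC values. MSCs were therefore above both other groups, but by 2.00 times against CiSCs (log2 fold change of CiSCs against MSCs -1.001 ± 0.436), and the order of CiSCs and MEFs could not be set. Without the first MEF library the log2 fold change of CiSCs against MEFs was 0.58, and without the second it was -0.88. For MSCs against MEFs it was 1.57 and 0.12 in turn, around 0.68 ± 0.43 with both. Slc30a4 and Slc39a14 were both lower, and Mt1 and Mt2 both higher, in the second MEF library than in the first.

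Over the 9 members with enough counts for the fit, CiSCs lay below MSCs without overlap in 9 and above in 0, where 42.5% of all 15272 tested genes were lower and 38.4% higher, 80.9% in all. CiSCs lay below MEFs without overlap in 4 (Slc30a1, Slc39a8, Mt1 and Mt2) and above in 0, where 35.2% of all tested genes were lower and 35.8% higher, 71.1% in all. MSCs lay above MEFs in 7 and below in 1 (Slc39a8), where 36.9% and 35.6% of all tested genes did, 72.5% in all. The members were picked from these same comparisons and the comparisons share libraries, so nothing is read from the counts.

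Levels of different genes were compared per kilobase, dividing CPM by the median length of the gene's protein-coding transcripts in GENCODE M21. That annotation is not stated to be the one used for counting. On this scale, the group means of Mt1 and Mt2 were above those of the other members in all 3 groups. In MEFs Mt1 had 125 and Mt2 72.6 CPM per kb, in CiSCs 62.5 and 29.6, and in MSCs 718 and 745. Within every MEF and CiSC library Mt1 was above Mt2, while in MSCs Mt2 was higher in the first library and Mt1 in the second. The nearest other member was Slc39a14, with 27.3, 21.8 and 43.7 CPM per kb in MEFs, CiSCs and MSCs. In CiSCs its libraries (19.3 and 24.3 CPM per kb) overlapped with those of Mt2 (36.2 and 23.1), so that order was not set there. In MEFs Slc39a14, at 40.2 and 14.4 CPM per kb, was above Slc30a4 in both libraries but above Slc30a5 only in the first. In MSCs Slc30a2, with 19.5 and 27.7 CPM per kb, overlapped with Slc30a5, and Slc30a1 (3.25 CPM per kb) with Slc39a8 (3.26). Transcripts of 1 gene differ in length, from 549 to 1085 bases for Mt1 and from 388 to 511 for Mt2, so the order of these genes is not firm.

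**Figure D3:**
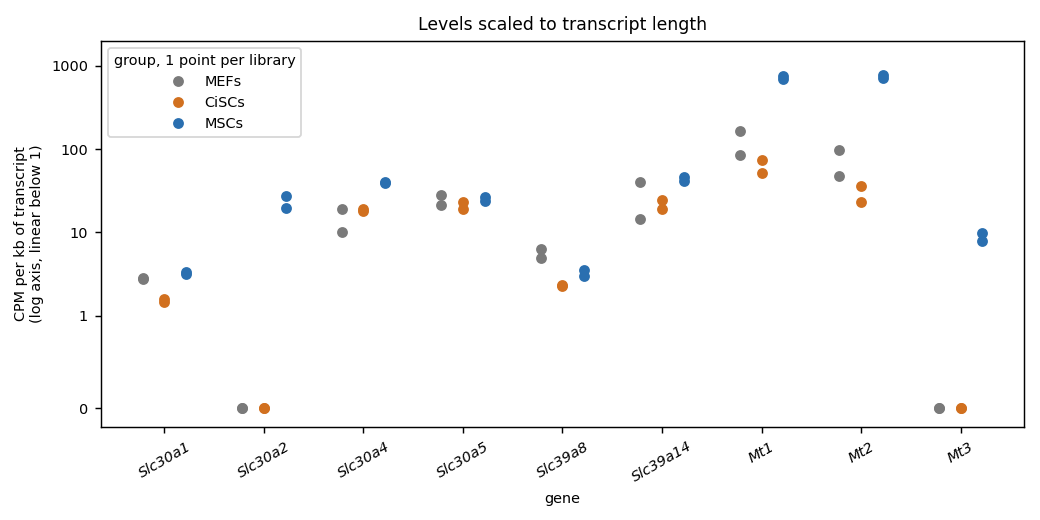
CPM per kilobase of transcript (vertical axis, logarithmic above 1 and linear below) for the 9 members with enough counts, with 1 point per library coloured by group. Mt1 and Mt2 reach 692 to 768 CPM per kb in MSCs, and Slc30a2 and Mt3 sit at 0 in MEFs and CiSCs.

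The other genes of the pathway were tested. The list held the other 5 Slc30 and 12 Slc39 genes, Mt4 and Mtf1, 19 in all, of which 13 had enough counts. It is what remained of these families after the members had been picked for their levels. With the quasi-likelihood test of edgeR and Benjamini-Hochberg adjusted p over all tested genes, 2 were higher and 2 lower in CiSCs than in MEFs (19.6% and 21.3% of all tested genes), with a median log2 fold change of -0.03 against 0.00 over all genes. In MSCs against MEFs 2 were higher and 1 lower (22.5% and 20% of all), with a median of 0.16 against 0.01. In CiSCs against MSCs 1 was higher and 2 lower (17.7% and 25.1% of all), with a median of -0.11 against -0.03. In these comparisons 4, 3 and 3 of 13 thus passed, where 40.9%, 42.5% and 42.8% of all tested genes did.

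Slc39a4, the zinc importer of the intestine that is mutated in acrodermatitis enteropathica, fell the most. The MEF libraries gave 7.44 and 15.9 CPM, the CiSC libraries 0.191 and 0.140 CPM, and the MSC libraries 0.213 and 0 CPM. The log2 fold change was -6.08 ± 0.72 in CiSCs (adjusted p = 9.85e-04, edgeR) and -6.68 ± 0.78 in MSCs (adjusted p = 8.68e-04), with only 7 and 4 reads left in those groups. All 4 MSC reads were in the first library, and the MSC value was -5.73 without the second library. Without the first MSC library 0 reads remained, so the fitted -10.86 is set by the model and is no measure of size. Without the second MEF library the values were -5.44 in CiSCs and -6.04 in MSCs. The leukocyte markers fell in the same comparisons, and between the MEF libraries Slc39a4 was higher in the second, as were 9 of the 12 markers but not Ptprc, Adgre1 and Mrc1. Their part in the fall of Slc39a4 was not tested.

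Slc39a11, a ZIP transporter of the Golgi, was lower in CiSCs than in both other groups. The MEF libraries gave 30.8 and 33.2 CPM, the CiSC libraries 18.7 and 16.9 CPM, and the MSC libraries 33.5 and 33.2 CPM. The log2 fold change was -0.85 ± 0.13 against MEFs (adjusted p = 0.00295, edgeR) and -0.91 ± 0.13 against MSCs (adjusted p = 0.00189). MEFs and MSCs overlapped. Both Slc39a11 results and both Slc39a4 results passed in every alternative analysis that did not leave out a single library. Their log2 fold changes stayed negative in all 12 alternatives tried.

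The other calls were smaller. Slc39a1, a widely expressed zinc importer of the plasma membrane, was higher in CiSCs (372 ± 21.1 CPM, SD, n = 2) than in MEFs (247 ± 31.0 CPM; adjusted p = 0.0161, edgeR) and MSCs (275 ± 0.522 CPM; adjusted p = 0.0449). Slc30a9, a mitochondrial zinc transporter, was higher than in MEFs (65.3 ± 9.33 CPM) both in CiSCs (99.4 ± 6.17 CPM; adjusted p = 0.0228, edgeR) and in MSCs (92.9 ± 10.02 CPM; adjusted p = 0.0405). Slc39a13, a ZIP of the secretory pathway linked to connective tissue, was lower in CiSCs (83.5 ± 12.4 CPM) than in MSCs (118 ± 8.14 CPM; adjusted p = 0.0431, edgeR). Mtf1, the zinc sensor gene itself, moved little, at 20.9 ± 1.82 (MEFs), 25.3 ± 0.448 (CiSCs) and 28.4 ± 0.988 CPM (MSCs) (log2 fold change of MSCs against MEFs 0.44 ± 0.13, adjusted p = 0.0376, edgeR). With any 1 CiSC or MSC library left out, none of these 6 results passed, although their log2 fold changes stayed on the same side. In CiSCs against MEFs these ran from 0.51 to 0.65 for Slc30a9 and from 0.52 to 0.62 for Slc39a1, with edgeR adjusted p from 0.0551 to 0.175 for Slc30a9 and from 0.0560 to 0.133 for Slc39a1. In MSCs against MEFs they ran from 0.40 to 0.62 for Slc30a9 (adjusted p 0.102 to 0.248) and from 0.41 to 0.48 for Mtf1 (0.120 to 0.203). In CiSCs against MSCs they ran from 0.39 to 0.49 for Slc39a1 (adjusted p 0.144 to 0.233) and from -0.64 to -0.35 for Slc39a13 (0.0845 to 0.280). With either MEF library left out, the spread was estimated from the CiSC and MSC pairs alone. Those pairs were over 2-fold apart in 477 and 415 genes, against 1416 in MEFs, so whether a result passed is not read there. All 6 log2 fold changes stayed on the same side, with 0.37 for Slc30a9 in MSCs against MEFs without the second MEF library.

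Slc30a6, the partner of Slc30a5, was as even as that gene, at 22.2 ± 3.58 (MEFs), 21.7 ± 1.74 (CiSCs) and 26.0 ± 2.98 CPM (MSCs) (edgeR adjusted p from 0.281 to 0.912 over the 3 comparisons). Slc39a10, a zinc importer, missed the threshold in CiSCs against MEFs with all libraries (log2 fold change 0.85 ± 0.35, adjusted p = 0.0993, edgeR). Without the first MEF library the value grew to 1.54, and without the second it shrank to 0.37. With 1 MEF library there is no spread within that group, so no p-value is read from those fits. Both genes were chosen after their values were seen.

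**Figure D4:**
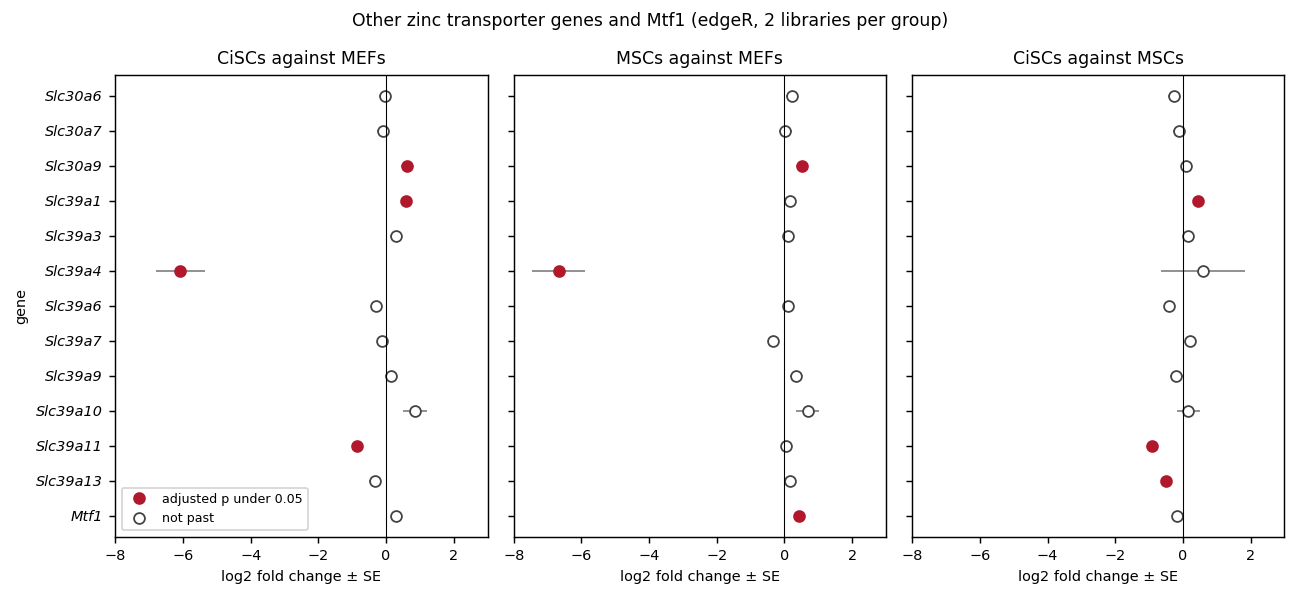
Log2 fold change ± SE (horizontal axis) of Mtf1 and the tested zinc transporter genes outside the 10 members, 13 genes in all, in the 3 comparisons, with filled points where the edgeR adjusted p was under 0.05. Slc39a4 lies at -6.08 and -6.68 against MEFs, and Slc39a11 is lower in CiSCs in both comparisons that include them.

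The genes most alike in pattern were looked up for the 4 members whose group means spanned at least 2 log2 units. Likeness was the root mean square difference of log2 CPM, centred on each gene's mean, over the 6 libraries, among genes reaching 10 CPM in a group, with a prior count of 2. For Mt1 the nearest was Alas1, the first enzyme of haem synthesis (difference 0.17), followed by Gm2a and Itpk1 (0.19 each). For Mt2 they were Vill (0.25), the alcohol dehydrogenase gene Adh1 (0.27) and the glutathione transferase gene Gstm2 (0.35). Alas1 had means of 49.0, 26.9 and 321 CPM in MEFs, CiSCs and MSCs, and Adh1 13.5, 5.58 and 135 CPM. For Slc30a2 the nearest were Map3k21 (0.18) and Col22a1 (0.24), both with at most 0.0513 CPM in MEFs and CiSCs, and for Mt3 they were Erfe (0.22), Sh3tc2 (0.23) and Afap1l2 (0.24). For Slc30a2 and Mt3, with 0 reads in 4 libraries, likeness depends on that prior count.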

How the data were processed

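Each library had 1 deposited table of expected counts (fractional read estimates, 42.0% to 43.8% of values not whole) by Entrez identifier. HISAT and the mouse build mm9 are named in the submitters' processing notes. The counting program, its annotation and any strand setting are not given in the sources used here. Totals ranged from 19294700 to 20418600 counts, so 1 read was worth 0.0468 to 0.0543 CPM. Symbols, neighbours and promoter windows came from RefSeq (GRCm38), and no coordinate of the deposited build was used.

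Counts were rounded and fitted in R 4.3.3 with edgeR 4.0.16. The steps were filterByExpr, TMM scaling and quasi-likelihood fitting of the 3 groups over all 6 libraries, leaving 3 residual degrees of freedom. Tests were two-sided with an adjusted p under 0.05 over 15272 genes, and a standard error is the log2 fold change divided by the root of F. The procedure was run on simulated data in which far fewer genes differed between groups than here. That run therefore does not show how it performs on these data. The members and lists were chosen with earlier results of these data known. All members were named, with other zinc genes called at 1 CPM or more (up to 8, plus Mtf1) and up to 4 genes with the smallest adjusted p in CiSCs against MEFs from each list of iron and manganese, copper, glucocorticoid-induced and NRF2 genes. Germ cell markers (6 genes) summed to 8.33 and 7.74 CPM in MSCs and 0.163 to 0.641 CPM elsewhere. Myoid markers (5 genes), led by Acta2, summed to 2666 and 2234 CPM (MEFs), 1273 and 1163 CPM (CiSCs), and 2676 and 2527 CPM (MSCs). Alternatives were leaving out each library, a block on replicate number, fits of just the 2 groups compared, RLE size factors, no filter, a filter of 5 CPM in 2 libraries, and DESeq2 1.42.0. The counts of the 4 lists without each library were chosen after seeing the data. A gene that the likeness rule names is not reported here.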

Additional observations from a re-analysis of the deposited data

How the results depend on the processing

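Of 25 member fold changes, 22 kept their sign in all alternatives, and the exceptions were Slc30a4 and Slc39a14 in CiSCs against MEFs and Slc30a5 in MSCs against MEFs. Of 298 alternative values, 276 moved by less than the standard error. The other 22 came from leaving out a MEF library, except Mt2 without the first CiSC library and Slc30a2 with DESeq2. Deviations of same-numbered libraries correlated at -0.21 for MEFs and CiSCs, 0.14 for MEFs and MSCs and -0.13 for CiSCs and MSCs. Whether same-numbered libraries were paired is not in the labels, and 2 libraries per group are too few for these values to show it. With the replicate block, 5468 genes were called in CiSCs against MEFs, 5672 in MSCs against MEFs and 5814 in CiSCs against MSCs, where 6250, 6497 and 6534 were without it. The block left 1 other zinc gene called in MSCs against MEFs and 1 in CiSCs against MSCs, where 3 and 3 were without it. With only the 2 groups compared, other zinc genes called numbered 2, 1 and 5 in the same order, where 4, 3 and 3 were with all groups, and 1 was called in CiSCs against MSCs with no filter. Leaving out each library gave 3395 to 9487 genes called in CiSCs against MEFs, 3516 to 9745 in MSCs against MEFs and 3910 to 9369 in CiSCs against MSCs. Other zinc genes called then ranged from 2 to 8 in CiSCs against MEFs, 1 to 6 in MSCs against MEFs and 1 to 5 in CiSCs against MSCs. The highest counts came from leaving out a MEF library and the lowest from leaving out a CiSC or MSC library. The cause was not tested. At this depth, genes with a few reads per group, such as Slc30a10, could not be compared.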

Other observations

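Of 20 tested genes of iron and manganese handling, 9 were lower and 2 higher in CiSCs than in MEFs, against 21.3% and 19.6% of all tested genes (median log2 fold change -0.43). Fth1, the ferritin heavy chain that stores iron, fell from 2572 and 4478 CPM in MEFs to 413 and 408 CPM in CiSCs, with 1323 and 1255 CPM in MSCs (adjusted p = 2.95e-04 for CiSCs against MEFs, edgeR). Its processed pseudogenes can share reads. Slc11a1, the metal transporter of phagocyte endosomes, fell from 30.6 and 64.1 CPM in MEFs to 0.342 and 0.132 CPM in CiSCs (adjusted p = 1.21e-04, edgeR), and the leukocyte markers fell in the same comparison. The transferrin gene Trf fell from 99.9 and 123 CPM in MEFs to 2.97 and 3.04 CPM in CiSCs (log2 fold change -5.21 ± 0.21). In MSCs Trf stood at 85.3 and 105 CPM and overlapped with MEFs. Cp, the copper-carrying ferroxidase ceruloplasmin, rose from 11.8 and 13.4 CPM in MEFs to 44.0 and 50.4 CPM in CiSCs and 300 and 334 CPM in MSCs (adjusted p = 1.69e-04 and 1.20e-05, edgeR). Without the first MEF library, 6 rather than 2 of the list were higher in CiSCs. In MSCs against MEFs 7 were higher and 5 lower (22.5% and 20% of all tested genes), and fewer were lower with either MSC library left out.

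Of 9 glucocorticoid-induced genes, 5 were higher and 1 lower in MSCs than in MEFs, against 22.5% and 20% of all tested genes, and 2 were higher and 4 lower in CiSCs than in MEFs, against 19.6% and 21.3%. Fkbp5, a steroid receptor co-chaperone, stood at 49.5 and 41.8 CPM (MEFs), 17.2 and 20.8 CPM (CiSCs), and 252 and 258 CPM (MSCs) (edgeR adjusted p = 0.00117 and 7.54e-05 against MEFs). Errfi1 and Dusp1, chosen after their values were seen, had the largest rises of the list in MSCs against MEFs (log2 fold changes 3.50 ± 0.34 and 3.63 ± 0.42). In CiSCs against MEFs Errfi1 rose (1.10 ± 0.31, adjusted p = 0.0305, edgeR), and Dusp1 had a value of 0.86 ± 0.38 (adjusted p = 0.119). Klf9 rose in both, from 34.0 ± 6.34 CPM (SD, n = 2) in MEFs to 67.0 ± 3.90 in CiSCs and 121 ± 5.48 in MSCs. Per1 fell in CiSCs (log2 fold change -1.07 ± 0.13, adjusted p = 0.00106, edgeR), with 83.0 ± 6.53 CPM in MEFs and 79.5 ± 1.26 CPM in MSCs. Nfkbia, which NF-kB also induces, fell to 15.3 ± 1.15 CPM in CiSCs from 204 ± 51.2 CPM. In CiSCs, 1 rather than 2 was higher without any 1 CiSC or MSC library, and 4 were higher without the second MEF library.

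Of 10 copper genes, 4 were lower in CiSCs than in MEFs and 6 did not pass (edgeR), where 21.3% of all tested genes were lower and 40.9% were called in either direction. The lower genes numbered 1 with either CiSC library left out and 2 with either MSC library left out. In MSCs against MEFs 3 copper genes were higher and 2 lower (22.5% and 20% of all tested genes), and these became 1 and 0 with either MSC library left out. From MEFs to CiSCs the Slc31a2 level went from 71.4 ± 30.6 to 14.0 ± 2.27 CPM. Slc31a1, Atox1 and Cox17 were 1.59, 1.90 and 1.86 times lower in CiSCs than in MEFs. Of 9 NRF2 genes, 1 was higher (Gsr, glutathione reductase, 27.2 ± 7.09 to 94.8 ± 2.65 CPM) and 2 were lower (Slc7a11 and Hmox1) in CiSCs than in MEFs, where 19.6% were higher and 21.3% lower among all tested genes, 40.9% in all, and Srxn1 had an edgeR adjusted p of 0.0743. In MSCs against MEFs 2 were higher and 1 lower (22.5% and 20% of all tested genes), and fewer passed with either MSC library left out. NRF2 genes called higher in CiSCs numbered 2 with either MEF library left out.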
